A study of Mus musculus with 8 samples.

Results

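Interferon-stimulated genes are transcribed when a cell senses interferon, and their products block viruses, destroy vacuoles that hold pathogens and prepare peptides for MHC class I. The set described here comprised 36 genes of 8251 that had a probe set with a single gene symbol on the array. They were chosen by name, but with earlier results of these data known. The names were the Ifi, Ifih1, Ifit, Gbp, Mx, Oas, Isg, Irgm, Iigp, Igtp, Usp18, Adar, Eif2ak2 and Tap genes. Each gene is given by the probe set with the highest mean log2 signal over the 8 arrays. Other genes of the naming rule are not analysed here.

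RNA came from mouse follicular B cells, the recirculating B cells of the spleen and lymph nodes, whose antigen receptor recognises hen egg lysozyme (HEL), and was hybridised to 8 single-colour short-oligonucleotide arrays. All cells carried an anti-HEL receptor, either the chimeric IgMG, in which IgG1 supplies the extracellular spacer, the transmembrane segment and the cytoplasmic tail, or the ordinary IgM. The 4 groups of 2 arrays were IgMG cells with HEL (pools of 8 and 6 mice), unstimulated IgMG cells (5 and 6 mice), IgM cells with HEL (4 and 2 mice) and unstimulated IgM cells (2 and 4 mice). In the same order, the pools came from 3 and 2, 2 and 2, 2 and 1, and 1 and 2 cell sorts. Each IgM pool of 2 mice thus came from 1 sort. The labels and design text give no strain, age, dose of HEL or length of stimulation. Every IgMG pool held more mice than any IgM pool, so the receptor and the number of mice pooled cannot be told apart.

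Type I interferons signal through IFNAR1 and IFNAR2 to a transcription factor complex that contains IRF9 and binds the interferon-stimulated response element (ISRE), whereas interferon gamma acts through factors that bind the gamma-activated site (GAS). Many of the genes are induced by both, and B cells carry receptors for both. A resting lymphocyte usually holds a low level of many of these transcripts without infection.

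Promoters of 28 of the 36 genes were found in the RefSeq tables of GRCm38.p6, as windows that reach from 250 bases before the annotated start to 50 bases after it. The ISRE was searched on both strands as GAAA, any 2 bases and GAAA again, and the GAS, which reads the same on both strands, as TTCNNNGAA. At least 1 ISRE match lay in the windows of 16 of the 28 genes (57.1%), against 3.99% of 27025 genes with a window, and a GAS match in 11 (39.3%), against 9.55%. The matches overlapped each other in 1 window of these genes and in 24 windows of all genes. ISRE matches were present in 6 of 10 genes that fell with HEL in IgM cells and in 8 of 15 tested genes that did not pass that test. A match is a string of letters and not a measured binding site. The 250 bases before the start are shown for 4 genes that fell (Gbp3, Ifit3, Igtp and Irgm1) and for 2 that did not pass the test although they hold 2 and 3 matches (Ifit1 and Isg15). They read 5′ to 3′ on the gene's strand, and capitals mark ISRE matches, which begin and end with TTTC where the match lies on the other strand.
Gbp3, chr3:142559794-142560043, plus strand: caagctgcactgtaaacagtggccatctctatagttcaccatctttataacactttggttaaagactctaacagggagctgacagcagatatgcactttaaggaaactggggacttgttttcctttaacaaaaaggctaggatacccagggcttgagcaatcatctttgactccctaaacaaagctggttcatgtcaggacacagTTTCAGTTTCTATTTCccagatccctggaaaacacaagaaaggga
Ifit3, chr19:34583279-34583528, plus strand: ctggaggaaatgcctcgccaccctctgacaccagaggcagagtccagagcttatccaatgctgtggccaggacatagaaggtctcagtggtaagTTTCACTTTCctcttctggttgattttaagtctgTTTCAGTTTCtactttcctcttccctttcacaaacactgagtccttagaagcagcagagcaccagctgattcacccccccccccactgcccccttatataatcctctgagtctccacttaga
Igtp, chr11:58199306-58199555, plus strand: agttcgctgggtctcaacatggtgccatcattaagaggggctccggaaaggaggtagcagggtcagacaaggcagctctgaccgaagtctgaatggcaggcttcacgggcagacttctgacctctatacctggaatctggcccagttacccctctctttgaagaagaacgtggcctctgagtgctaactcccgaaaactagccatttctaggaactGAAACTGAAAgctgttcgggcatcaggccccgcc
Irgm1, chr11:48871421-48871670, minus strand: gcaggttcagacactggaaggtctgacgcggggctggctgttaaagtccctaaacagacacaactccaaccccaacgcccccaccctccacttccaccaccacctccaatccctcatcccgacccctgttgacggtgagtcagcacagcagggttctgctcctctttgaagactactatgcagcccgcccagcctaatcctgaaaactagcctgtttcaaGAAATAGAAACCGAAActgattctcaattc
Ifit1, chr19:34640639-34640888, plus strand: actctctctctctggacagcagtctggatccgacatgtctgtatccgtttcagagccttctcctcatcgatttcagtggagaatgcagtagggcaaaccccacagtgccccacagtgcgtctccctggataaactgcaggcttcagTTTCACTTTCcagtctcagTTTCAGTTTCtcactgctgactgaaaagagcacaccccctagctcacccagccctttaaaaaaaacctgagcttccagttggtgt
Isg15, chr4:156200819-156201068, minus strand: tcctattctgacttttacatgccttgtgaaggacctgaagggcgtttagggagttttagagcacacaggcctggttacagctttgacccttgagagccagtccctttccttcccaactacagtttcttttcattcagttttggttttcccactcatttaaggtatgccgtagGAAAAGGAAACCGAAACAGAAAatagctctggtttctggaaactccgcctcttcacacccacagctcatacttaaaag
The promoters with ISRE matches therefore included genes that fell strongly and genes whose arrays overlapped. In Gbp3 a pair of overlapping matches began 45 and 39 bases before the start, and in Irgm1 an overlapping pair began 30 and 24 bases before it. Isg15 held 3 overlapping matches, which began 78, 72 and 66 bases before the start.

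Signals are the deposited MAS 5 intensities, scaled to a common trimmed mean on each array, with array medians of 40.7 to 47.8. Cd79a, a signalling chain of the B cell receptor, was at 5637 to 7758, and Fcer2a, a marker of follicular B cells, at 1099 to 3434. Other B cell markers differed with HEL. In IgM cells both HEL arrays lay below both unstimulated arrays for 6 of 9 (Cd79b, Ms4a1, Cd22, Pax5, Blnk and Ebf1), against 30.6% of all probe sets. In IgMG cells they lay below for 2 (Cd79b and Pax5), against 29.4%. Blk and Cd72 lay above with both receptors, where 27.6% did in IgM cells and 23.7% in IgMG cells. The summed signal of 8 T cell markers was 51.8 to 173, with Cd3e, Cd3d and Cd3g, which encode the CD3 complex, at 16.2 or below on every array and Cd4 at up to 89.8. Erythroid RNA was high on every array, with sums over 4 markers of 12640 to 20029. A pair of arrays stood apart in markers of other cell types or in RNA quality. One, the second unstimulated IgMG array, had summed signals of 2236 over 7 natural killer (NK) cell markers and 21054 over 18 myeloid markers, against 227 to 574 and 1850 to 8054 on the other arrays. The other was the second IgM array with HEL, whose 5′ to 3′ ratio of Gapdh signal, a measure of RNA quality, was 0.755, against 0.14 to 0.395 elsewhere. The first unstimulated IgM array, not counted in this pair, had the lowest sum over 2 follicular markers, 1546, against 2255 to 3973 elsewhere. Its Fcer2a was the lowest, at 1099, while its Ighd, at 447.2, lay within the range of 274.7 to 538.6 on the other arrays. In such pooled samples a lower signal can mean less RNA per cell or fewer cells that express the gene, which cannot be told apart.

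A large share of the interferon-stimulated genes had lower signals with HEL in IgM cells, and none passed the test in the other direction. Of 33 genes bright enough to test, 13 fell (39.4%), while 7.27% of all 7453 probe sets tested fell, and 0 of the 33 rose, where 6.7% of all probe sets rose (limma, Benjamini-Hochberg adjusted p under 0.05 over all probe sets). The median log2 change of the 33 genes was -0.60, against -0.02 over all probe sets tested. The genes that fell were Gbp3, Ifit3, Mx1, Ifit2, Ifi47, Mx2, Ifi30, Irgm1, Gbp7, Igtp, Usp18, Irgm2 and Tap1. The IgM count rested on few arrays: it was 2 without the first unstimulated IgM array, 6 without the second, and 6 without the second HEL-stimulated IgM array. Over all probe sets the number that fell was 153, 218 and 177 without these arrays and 542 with all arrays. Without both arrays that stood apart, the median log2 change of the 33 genes in IgM cells was -0.47, against -0.01 over all probe sets tested.

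**Figure D1:**
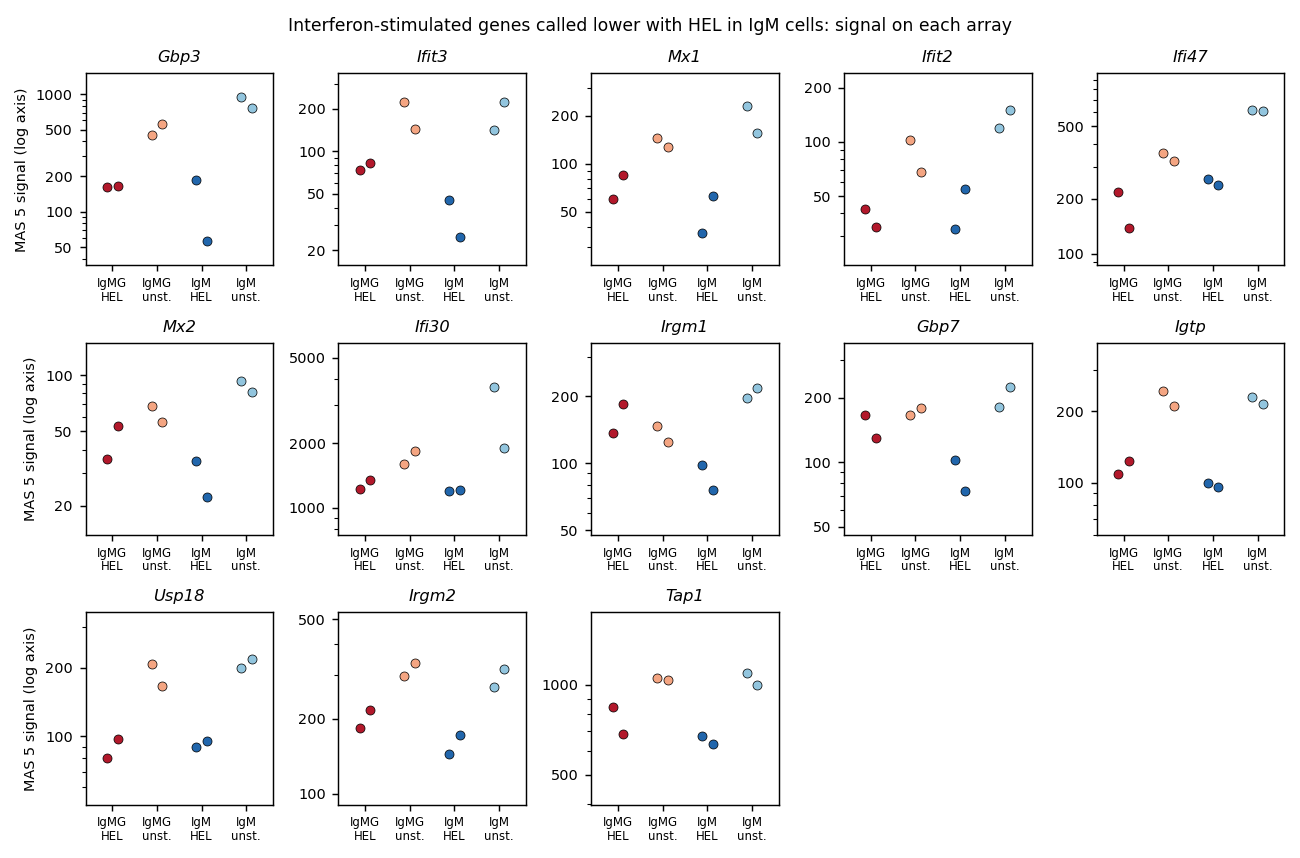
Deposited MAS 5 signal (vertical log axis, arbitrary units) on each of the 8 arrays for the 13 genes that fell with HEL in IgM cells; red points are IgMG cells and blue points IgM cells, dark with HEL and light unstimulated (unst.). In IgM cells both HEL arrays lie below both unstimulated arrays for all 13 genes, whereas in IgMG cells the arrays of Irgm1 and Gbp7 overlap.

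In IgMG cells fewer genes passed the test. The genes that fell were Igtp, Usp18 and Ifi47, 3 of 33 (9.09%), against 2.29% of all probe sets tested, and 0 rose, against 3.1%. Their median log2 change was -0.41, against -0.05 over all probe sets. All 3 had also fallen in IgM cells, as had 114 of the 171 probe sets that fell in IgMG cells. Of all probe sets 1.53% fell in both. The IgMG count is small and was 0 without the second HEL-stimulated IgMG array or without the second unstimulated IgM array, 1 without the first HEL-stimulated IgMG or the first unstimulated IgM array, and 2 without the second unstimulated IgMG array. Over all probe sets the number that fell was 10 without the second HEL-stimulated and 25 without the first HEL-stimulated IgMG array, 98 or 102 when the second or the first unstimulated IgM array was left out, 138 without the second unstimulated IgMG array and 171 with all arrays. Without both arrays that stood apart, 6 members fell and 1 rose, where 244 of all probe sets fell and 292 rose. With the replicate number as a block 1 member fell, as did 100 of all probe sets.

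The array values can also be read without a test. In IgM cells both HEL arrays lay below both unstimulated arrays for 20 of the 33 genes, where 30.6% of all probe sets did so, and above them for 5, where 27.6% did. In IgMG cells the HEL arrays lay below for 15 genes, against 29.4% of all probe sets, and above for 4, against 23.7%. In both receptors at once they lay below for 13 genes (16% of all probe sets) and above for 1, Adar (12.8%). 

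**Figure D2:**
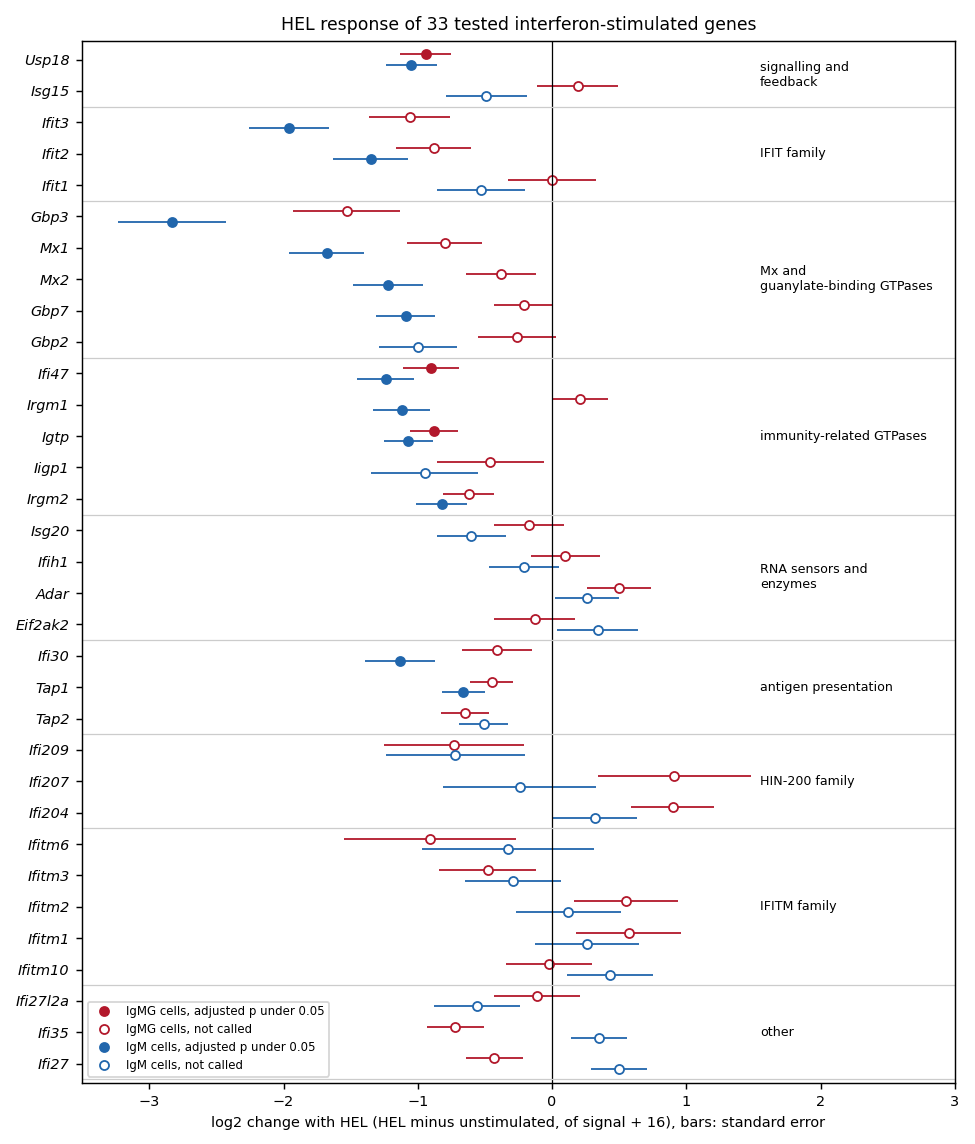
Log2 change with HEL (horizontal axis, HEL minus unstimulated, of signal + 16) of the 33 tested genes, grouped by role; red circles are IgMG cells, blue circles IgM cells, bars are standard errors of the fit and filled circles passed an adjusted p of 0.05. The 3 red and 13 blue filled circles all lie left of 0. No filled circle lies among the RNA sensors and enzymes, the HIN-200 family, the IFITM family or the last 3 genes.

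The feedback gene Usp18 encodes a protease that strips ISG15 from its targets and restrains signalling at IFNAR2. Its signal was 80.4 and 97.7 in IgMG cells with HEL, against 206.7 and 166.0 in unstimulated IgMG cells. IgM cells had 90.0 and 95.6 with HEL, against 199.2 and 218.3 unstimulated. The HEL arrays of both receptors thus lay clearly below the unstimulated ones. In IgMG cells the log2 change was -0.94 ± 0.19 (SE, limma adjusted p = 0.0281), a call that held in only 11 of 20 other settings. In IgM cells it was -1.05 ± 0.19 (limma adjusted p = 0.00943), and that call held in 18 of 20.
Isg15, the ubiquitin-like protein that Usp18 removes, gave 358.4 and 184.6 in IgM cells with HEL, against 458.1 and 295.9 unstimulated. These arrays overlapped, and the log2 change was -0.49 ± 0.30 (limma adjusted p = 0.325). In IgMG cells Isg15 was 236.3 and 234.4 with HEL, against 200.3 and 209.7 unstimulated, a log2 change of 0.19 ± 0.30.

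The IFIT family includes proteins that bind viral RNA without the cap modifications of host RNA. Of the 3 family members on the array, 2 fell in IgM cells. Ifit3 stood at 45.4 and 24.9 in IgM cells with HEL, against 142.2 and 223.7 unstimulated. In IgMG cells it was 73.3 and 83.2 with HEL, against 223.7 and 145.3 unstimulated. HEL arrays were lower with either receptor, with log2 changes of -1.06 ± 0.30 (SE) in IgMG cells (limma adjusted p = 0.0782) and -1.96 ± 0.30 in IgM cells (adjusted p = 0.00418). In IgM cells the value was 3.89-fold lower with HEL. Ifit2 had 32.9 and 54.5 in IgM cells with HEL, against 118.7 and 150.4 unstimulated, a log2 change of -1.35 ± 0.28 (limma adjusted p = 0.014). In IgMG cells Ifit2 was 42.5 and 33.8 with HEL, against 102.4 and 67.8 unstimulated, which gave -0.88 ± 0.28 (adjusted p = 0.101). Ifit1 did not fall past the threshold, and its signals of 39.7 and 23.1 in IgM cells with HEL overlapped the 34.3 and 74.7 of unstimulated IgM cells. In IgMG cells Ifit1 was 43.8 and 38.8 with HEL, against 40.4 and 42.0 unstimulated. Its log2 changes were 0.00 ± 0.33 in IgMG cells and -0.53 ± 0.33 in IgM cells.

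The Mx proteins are dynamin-like GTPases that trap viral nucleocapsids, and the guanylate-binding proteins (GBPs) coat and break pathogen-containing vacuoles. In IgM cells 4 of the 5 tested members of this group fell. Gbp3 had the largest change of the 33 genes in either receptor. It gave 188.4 and 56.0 in IgM cells with HEL, against 944.1 and 762.1 unstimulated, a 7.12-fold lower value on the scale of signal + 16 (log2 change -2.83 ± 0.40, SE, limma adjusted p = 0.00277). In IgMG cells it was 162.8 and 165.0 with HEL, against 453.4 and 558.4 unstimulated, a log2 change of -1.53 ± 0.40 (adjusted p = 0.0621). The IgM arrays with HEL differed widely in Gbp3, the lower being the array with the high Gapdh ratio, yet both lay below every unstimulated array.
Mx1 had 36.8 and 62.8 in IgM cells with HEL, against 231.4 and 156.5 unstimulated (log2 change -1.68 ± 0.28, limma adjusted p = 0.00567). In IgMG cells Mx1 was 59.8 and 84.6 with HEL, against 144.3 and 128.2 unstimulated, a change of -0.80 ± 0.28 (adjusted p = 0.13). Mx2, its neighbour on chromosome 16, changed by -1.22 ± 0.26 in IgM cells (limma adjusted p = 0.0179). That call held in 14 of 19 other settings. In IgMG cells Mx2 had a log2 change of -0.38 ± 0.26.
Gbp7 gave 102.2 and 73.3 in IgM cells with HEL, against 180.7 and 225.5 unstimulated (log2 change -1.09 ± 0.22, limma adjusted p = 0.0134). In IgMG cells its arrays overlapped, with 167.0 and 129.2 with HEL against 166.2 and 179.9 unstimulated. Its IgM call held in 15 of 20 other settings. Gbp2 narrowly missed the threshold in IgM cells, at -1.0 ± 0.29 (adjusted p = 0.0542), with both HEL arrays below both unstimulated ones. Gbp2b, the remaining family member, was too dim to test.

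The immunity-related GTPases, which guard against bacteria and protozoa in vacuoles in mice, fell together in IgM cells in 4 of 5 members. The 4 lie on chromosome 11 in GRCm38.p6, as does Ifi35, which did not pass the test. Igtp stood at 108.7 and 123.7 in IgMG cells with HEL, against 244.2 and 211.8 unstimulated. IgM cells stood at 99.9 and 95.9 with HEL, against 229.9 and 215.7 unstimulated. With either receptor the HEL arrays lay well below the unstimulated ones. In IgMG cells the log2 change was -0.88 ± 0.18 (SE, limma adjusted p = 0.026), a call that held in 14 of 20 other settings. In IgM cells it was -1.07 ± 0.18 (limma adjusted p = 0.00579), and that call held in 19 of 20.
Ifi47 was 218.8 and 137.9 in IgMG cells with HEL, against 355.9 and 320.4 unstimulated. In IgM cells it was 255.9 and 239.0 with HEL, against 610.2 and 602.8 unstimulated. It fell in both, with log2 changes of -0.90 ± 0.21 in IgMG cells (limma adjusted p = 0.0471) and -1.24 ± 0.21 in IgM cells (adjusted p = 0.00693), and its IgMG call held in only 5 of 20 other settings. Irgm2 had a log2 change of -0.62 ± 0.19 in IgMG cells (limma adjusted p = 0.0909). In IgM cells it had -0.82 ± 0.19 (limma adjusted p = 0.0215), a call that held in 15 of 20 other settings.
Irgm1, which acts on the other GTPases of the family and on autophagy, had arrays that overlapped with one receptor and not with the other. In IgMG cells it was 137.2 and 184.6 with HEL, against 147.0 and 124.7 unstimulated (log2 change 0.21 ± 0.21). In IgM cells it was 98.3 and 76.2 with HEL, against 196.2 and 217.5 unstimulated (log2 change -1.12 ± 0.21, limma adjusted p = 0.0103). Iigp1 was 36.2 and 6.8 in IgM cells with HEL, against 42.1 and 60.5 unstimulated, and its change of -0.95 ± 0.40 did not pass the test (adjusted p = 0.155). A dimmer probe set of Iigp1 gave 0.03 in IgM cells.

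**Figure D3:**
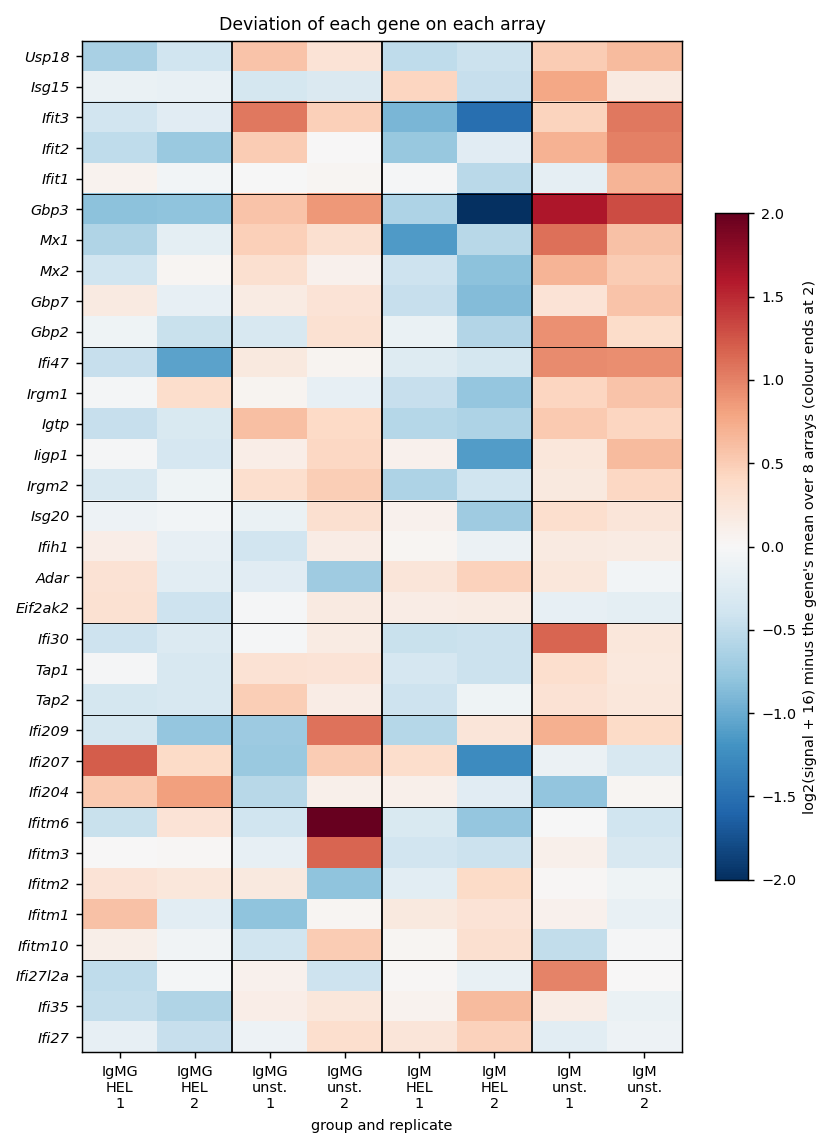
Deviation of each of the 33 tested genes on each array (log2 of signal + 16, minus the gene's mean over 8 arrays; red above, blue below, colour ending at 2), with arrays in columns by group and replicate and genes in rows by role. The genes from Usp18 to Irgm2 are mostly blue on the HEL arrays and red on the unstimulated ones, and Ifitm6 and Ifitm3 are darkest on the second unstimulated IgMG array.

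Of 3 genes of antigen presentation, Ifi30 and Tap1 fell in IgM cells, and no member passed in IgMG cells. Ifi30 encodes a thiol reductase that unfolds antigens in lysosomes, and Tap1 and Tap2 form the pump that carries peptides to MHC class I. Ifi30 was 1196 and 1205 in IgM cells with HEL, against 3668 and 1904 unstimulated (log2 change -1.13 ± 0.26, SE, limma adjusted p = 0.0233). The unstimulated IgM arrays differed widely here, and the call held in 16 of 20 other settings, with log2 changes between -1.60 and -0.66. Tap1 gave 675.5 and 635.6 in IgM cells with HEL, against 1094 and 997.3 unstimulated (log2 change -0.66 ± 0.16, limma adjusted p = 0.0249). In IgMG cells Tap1 was 845.5 and 686.0 with HEL, against 1054 and 1039 unstimulated, a change of -0.45 ± 0.16 (adjusted p = 0.13). The Tap1 call held in 12 of 20 other settings and was lost when its dim second probe set was averaged in. Tap2 had log2 changes of -0.65 ± 0.18 in IgMG cells and -0.51 ± 0.18 in IgM cells, neither past the threshold, yet it passed for the mean over both receptors, at -0.58 ± 0.13 (adjusted p = 0.015).

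The mean HEL response over both receptors uses all arrays at once. In it 13 of the 33 genes fell, against 11.0% of all probe sets tested, and 0 rose, against 9.18%, with a median log2 change of -0.56 (-0.04 over all probe sets). These 13 shared 12 genes with those that fell in IgM cells; Irgm1 left the list and Tap2 joined it. Igtp had the smallest adjusted p among them, 0.00108 from limma, at -0.98 ± 0.12 (SE). With single arrays left out the median log2 change of the 33 genes in the mean response was -0.58 to -0.41, against -0.05 to -0.02 over all probe sets.

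The RNA sensors and RNA-modifying enzymes gave no call in either receptor. Ifih1 (MDA5), a cytosolic sensor of double-stranded RNA, had log2 changes of 0.10 ± 0.26 in IgMG cells and -0.21 ± 0.26 in IgM cells. Eif2ak2 (PKR), a kinase that stops translation when it binds such RNA, had -0.13 ± 0.30 in IgMG cells and 0.34 ± 0.30 in IgM cells. Adar, an adenosine deaminase that edits RNA, was the only one of the 33 genes whose HEL arrays lay above the unstimulated arrays with both receptors. It was 264.4 and 182.3 in IgMG cells with HEL, against 180.3 and 124.8 unstimulated, and 255.2 and 301.4 in IgM cells with HEL, against 254.8 and 206.4 unstimulated. Neither change passed the test, at 0.50 ± 0.24 in IgMG cells (limma adjusted p = 0.265) and 0.26 ± 0.24 in IgM cells (adjusted p = 0.534), and its dimmer probe set gave log2 changes of 0.91 in IgMG cells and 0.72 in IgM cells. The exonuclease gene Isg20 had a log2 change of -0.60 ± 0.26 in IgM cells (adjusted p = 0.165).

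The HIN-200 genes, which include DNA sensors, and the IFITM genes, whose products hinder viral fusion at membranes, gave no call either. Ifi204 was 342.2 and 423.4 in IgMG cells with HEL, against 152.7 and 250.2 unstimulated, so that the HEL arrays lay above, at a log2 change of 0.90 ± 0.31 (limma adjusted p = 0.132). In IgM cells its arrays overlapped. Ifi207 had log2 changes of 0.91 ± 0.57 in IgMG cells and -0.24 ± 0.57 in IgM cells. The probe sets of Ifi204 and Ifi207 are marked by the array's design as shared by related sequences, so that their signals can mix members of this family. Ifi209, Ifitm3 and Ifitm6 were high on 1 array, the second unstimulated IgMG array. There they reached 393.4, 1139 and 561.3, against 100, 443.4 and 90.1 on the first unstimulated IgMG array. That array also had the highest NK and myeloid marker sums, and their part in these values was not tested. Without it the log2 changes with HEL in IgMG cells were 0.18, 0.19 and 0.31, where all arrays gave -0.73, -0.48 and -0.91. The remaining IFITM genes did not pass either. Ifitm1 had log2 changes of 0.57 ± 0.39 in IgMG cells and 0.26 ± 0.39 in IgM cells. Ifitm2 had 0.55 ± 0.39 in IgMG cells and 0.12 ± 0.39 in IgM cells, and Ifitm10 had -0.02 ± 0.32 in IgMG cells and 0.43 ± 0.32 in IgM cells.

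The other 3 genes are of varied function. Ifi35 was 244.1 and 220.8 in IgMG cells with HEL, against 379.7 and 403.8 unstimulated, a log2 change of -0.72 ± 0.21 (limma adjusted p = 0.0911). In IgM cells it was 363.5 and 545.6 with HEL, against 382.7 and 311.5 unstimulated, and these arrays overlapped. Ifi27, a mitochondrial protein gene, was 251.1 and 200.6 in IgMG cells with HEL, against 263.3 and 361.1 unstimulated. IgM cells gave 336.1 and 395.3 with HEL, against 243.5 and 262.3 unstimulated. The HEL arrays of Ifi27 lay below in IgMG cells and above in IgM cells, with log2 changes of -0.43 ± 0.21 in IgMG cells and 0.50 ± 0.21 in IgM cells, neither past the threshold. Ifi27l2a had log2 changes of -0.11 ± 0.32 in IgMG cells and -0.56 ± 0.32 in IgM cells. Gbp2b, Ifi202b and Oas1g, with signals of 0.6 to 30.2, were too dim to test in any comparison.

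The study was designed to compare antigen-induced genes between the receptors. The HEL responses were compared through the difference of both log2 changes, IgMG minus IgM. No interferon-stimulated gene passed (0 of 33), and neither did any of the 7453 probe sets (0%). At an unadjusted p under 0.05 from limma there were 3 positive differences (5.06% of all probe sets) and 2 negative ones (5.0%). The median difference was 0.43, against -0.02 over all probe sets. Irgm1 had the smallest p, with a difference of 1.33 ± 0.30 (SE, limma adjusted p = 0.414), followed by Ifi35 at -1.07 ± 0.30, Ifi27 at -0.93 ± 0.29, Gbp7 at 0.87 ± 0.31 and Gbp3 at 1.30 ± 0.57. Each of the 13 genes that fell in IgM cells had a less negative change in IgMG cells, and 12 of them were negative there too. Those 13 were picked by their IgM change. A less negative change in IgMG cells was also found for 498 of all 542 probe sets that fell in IgM cells (91.9%). Over all probe sets tested, picked by no change, 55.1% were negative in IgMG cells, which is no like share for the 12. The share that was negative among the 542 was not counted. The median log2 change of the 13 was -0.80 in IgMG cells and -1.13 in IgM cells. All 542 probe sets had -0.56 in IgMG cells and -1.01 in IgM cells.

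Comparisons of the receptors at a single state gave no call among these genes. Without antigen 0 of 33 passed, as did 0% of all probe sets. The median log2 difference (IgMG minus IgM) was -0.21, against 0.01 over all probe sets tested. For 12 genes both IgMG arrays lay below both IgM arrays (15.1% of all probe sets), and for 2 above (16.5%). At an unadjusted p under 0.05 from limma 5 genes were lower in IgMG cells (1.91%) and 0 higher (2.71%). Ifi47 had the smallest p, with 355.9 and 320.4 in unstimulated IgMG cells against 610.2 and 602.8 in unstimulated IgM cells, a difference of -0.82 ± 0.21 (limma adjusted p = 0.965). The others were Irgm1 (-0.56 ± 0.21), Isg15 (-0.80 ± 0.30), Ifi30 (-0.62 ± 0.26) and Adar (-0.56 ± 0.24). With HEL 0 of 33 passed, where 1 of all 7453 probe sets did (0.0134%, lower in IgMG cells). The median difference was 0.15, against -0.0 over all probe sets tested. For 11 genes both IgMG arrays with HEL lay above both IgM arrays with HEL (23.8% of all probe sets), and for 3 below (24.5%). At an unadjusted p under 0.05 there were 4 higher (7.06%) and 2 lower (6.86%), and Ifi35 had the smallest p, at -0.90 ± 0.21 (limma adjusted p = 0.225). The unstimulated IgM arrays enter both the IgM response and the unstimulated receptor comparison, so those values are not independent.

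**Figure D4:**
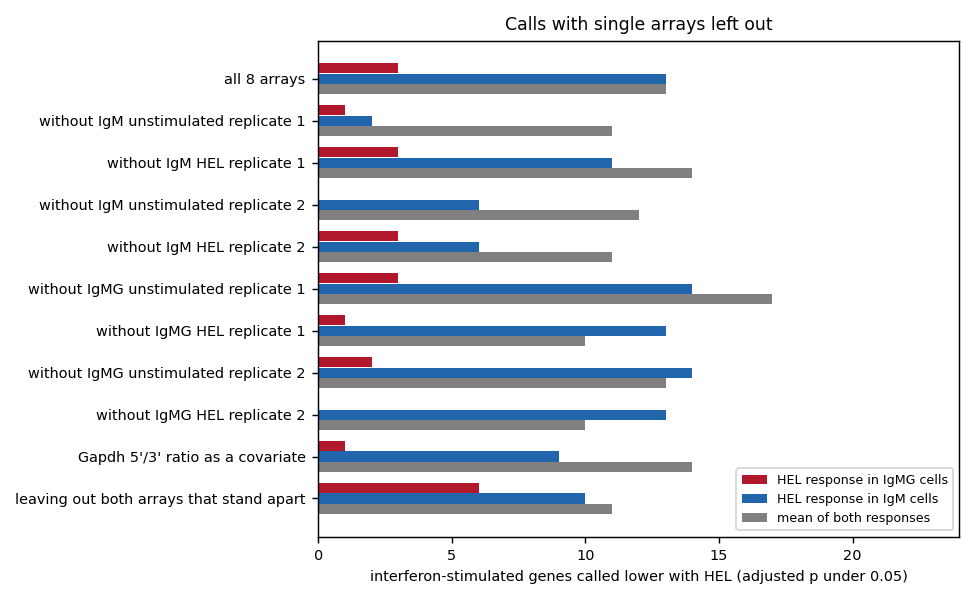
Number of interferon-stimulated genes that fell with HEL (horizontal axis, limma adjusted p under 0.05, of 33 tested) with all 8 arrays, with each array left out, with the Gapdh ratio as a covariate and without both arrays that stand apart; red bars are the IgMG response, blue bars the IgM response and grey bars their mean. The IgM count lies between 2 and 14, the IgMG count between 0 and 6, and the mean count between 10 and 17.

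The signals that feed this gene set were looked up in lists of related genes. Of 7 receptor and kinase genes (Ifnar1, Ifnar2, Ifngr1, Ifngr2, Jak1, Jak2 and Tyk2) 0 passed the limma test in either HEL response. Ifnar2, a chain of the type I receptor, had log2 changes of -0.17 ± 0.24 in IgMG cells and -0.57 ± 0.24 in IgM cells. Of 9 interferon genes 7 were too dim to test, among them Ifnb1 at 4.5 to 29.1 and Ifng at 1.4 to 18.6, and Ifna5 and Ifna9 did not pass.
Among other induced genes and regulators, 25 of 37 could be tested. Their median log2 change was -0.19 in IgMG cells and -0.31 in IgM cells, against -0.05 and -0.02 over all probe sets tested. In IgMG cells Psmb8 and Psmb9, catalytic subunits of the immunoproteasome, fell, and Irf8 rose. Thus 2 of the 25 fell, against 2.29% of all probe sets, and 1 rose, against 3.1%. In IgM cells Irf5, Irf9, Psmb9, Cmpk2 and Sp100 fell, and Irf8 and Stat3 rose. Here 5 of the 25 fell, against 7.27% of all probe sets, and 2 rose, against 6.7%. Irf9 encodes the DNA-binding subunit of the ISRE-binding complex. It was 714.6 and 581.5 in IgMG cells with HEL, against 928.6 and 623.8 unstimulated, and 525.9 and 423.8 in IgM cells with HEL, against 840.4 and 943.2 unstimulated (log2 change in IgM cells -0.89 ± 0.22, limma adjusted p = 0.0291). Irf8, a transcription factor of B cells and myeloid cells, was 4804 and 5292 in IgMG cells with HEL, against 2237 and 2226 unstimulated. IgM cells had 4375 and 5024 with HEL, against 2727 and 2352 unstimulated, and it rose with both receptors, by 1.17 ± 0.14 (log2) in IgMG cells (limma adjusted p = 0.00278) and by 0.88 ± 0.14 in IgM cells (adjusted p = 0.00422). In IgM cells Irf8 thus moved opposite to the 13 genes that fell.

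Marker genes of other cell types were set beside the HEL responses. The myeloid sum was 8054 and 7823 in IgMG cells with HEL, against 2579 and 21054 unstimulated, and 5845 and 1850 in IgM cells with HEL, against 6109 and 3829 unstimulated. Single myeloid markers did not all follow the sum, to which granulocyte genes such as S100a8 contributed most on the highest array. In IgM cells both HEL arrays lay above both unstimulated arrays for 5 of the 18 markers, namely Cd14, C1qa, C1qc, Cybb and Vcam1, where 27.6% of all probe sets did so, and below for 2, Ngp and Ltf. Cybb, a subunit of the phagocyte oxidase that B cells also express, was 236.7 and 353.8 in IgM cells with HEL, against 98.6 and 82.2 unstimulated. In IgMG cells the HEL arrays lay above for 1 marker, Cd14, and below for 2, Itgam and Fcgr1. Of the 8 T cell markers only Cd4 lay above in IgM cells, at 58.6 and 51.3 with HEL against 25.4 and 13.7 unstimulated, and 0 lay below. In IgMG cells only Cd3e lay above, at 11.6 and 11.4 with HEL against 6.7 and 8.0 unstimulated. The erythroid sum was 20029 and 16107 in IgMG cells with HEL, against 12640 and 17587 unstimulated, and 15555 and 13770 in IgM cells with HEL, against 15390 and 13850 unstimulated. The NK sum was 574 and 498 in IgMG cells with HEL, against 287 and 2236 unstimulated, and 340 and 247 in IgM cells with HEL, against 227 and 274 unstimulated. Of the 7 NK markers Ncr1, Gzma and Prf1 lay above and Klrk1 below in IgM cells, and 0 lay either way in IgMG cells. Of 5 dendritic and plasmacytoid cell markers Flt3, Ccr9 and Xcr1 lay above and Ly6d below in IgM cells. In IgMG cells Flt3 and Ly6d lay below. Ly6d was at 3672 to 6388 over all arrays, whereas Ncr1 was dim in IgM cells, at 2.7 to 21.0. For each of these marker counts, the shares of all probe sets in IgM cells were 27.6% above and 30.6% below. In IgMG cells the shares were 23.7% above and 29.4% below. The 13 genes that fell in IgM cells were picked by that change, so their IgM medians follow from the choice. Their median deviation was -0.41 and -0.27 in IgMG cells with HEL, against 0.33 and 0.27 unstimulated. In IgM cells it was -0.51 and -0.55 with HEL, against 0.52 and 0.58 unstimulated. Over all 33 tested genes the median deviation was -0.13 and -0.22 in IgMG cells with HEL, against 0.05 and 0.27 unstimulated. In IgM cells the 33 genes gave -0.25 and -0.43 with HEL, against 0.28 and 0.23 unstimulated. These medians cover genes that differed either way between arrays of a group, such as Ifit3 and Gbp3 between the unstimulated IgMG arrays. The part of other cell types in the HEL responses was not tested. The Gapdh ratio with HEL was 0.328 and 0.755 in IgM cells, against 0.373 and 0.259 unstimulated, and with that ratio as a covariate 9 members fell in IgM cells and 1 in IgMG cells. Over all probe sets 292 then fell in IgM cells, against 542 without the covariate, and 49 in IgMG cells, against 171.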

How the data were processed

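Follicular B cells of mice were profiled on 8 arrays, in 4 groups of 2 given by the sample titles. The authors deposited a linear intensity for each probe set, from MAS 5 per the submitters' processing notes. The labels do not say whether pools shared mice, so p-values measure only the spread between these arrays. The members and gene lists were chosen with earlier results of these data known.

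Values were taken as log2(signal + 16), which understates changes of dim genes. Of 12422 non-control probe sets, the brightest 60% by mean over all arrays were tested, 7453 in all. Names came from the platform annotation of 2016, and only the 10833 probe sets with 1 symbol were named (396 had several and 1193 none). All 36 member symbols matched the GRCm38.p6 gene table. limma 3.58.1 in R 4.3.3 fitted 1 coefficient per group, with eBayes (trend), two-sided tests and Benjamini-Hochberg adjustment at 0.05, on 4 residual and 4.87 prior degrees of freedom. No exact permutation test between pairs of arrays can give a p below 0.333. Errors are the fit's standard errors. The fit was tested on simulated data. Every member is named in the text. Alternatives changed the offset, scaling, filter, trend, arrays fitted, block, probe set choice or threshold, or left out an array. Those added after seeing the data were the Gapdh covariate, removal of both apart arrays and a crossed pairing. Plots used matplotlib 3.10.9 (Python 3.11.15).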

Additional observations from a re-analysis of the deposited data

Results flagged for a closer look

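The HEL response of Ifi27 ran in opposite directions in both receptors, with every HEL array below the unstimulated arrays in IgMG cells and above them in IgM cells. The difference of the log2 changes, IgMG minus IgM, was -0.93 ± 0.29 (SE), with an adjusted p = 0.414 from limma, and did not pass the test.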

How the results depend on the processing

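Every call kept its direction under all alternatives run. Of the alternative values of called changes, 479 stayed past the threshold and 84 did not, and the cause was not tested. Gbp3 and Ifit3 kept their call in IgM cells under all 20 alternatives. With 2 arrays per group, the number of arrays limits the precision, and a difference of responses carries the errors of 4 groups.

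With single arrays left out, the count of members that fell was 2 to 14 in IgM cells and 0 to 3 in IgMG cells. The count that rose was 0 to 1 for the mean response (Ifi204), and 0 to 1 for unstimulated IgMG minus IgM cells (Ifitm6, without the first unstimulated IgMG array). Their median log2 change was -0.79 to -0.47 in IgM cells, -0.48 to -0.16 in IgMG cells, -0.58 to -0.41 for the mean and 0.31 to 0.57 for the difference of responses. The median of IgMG minus IgM was -0.28 to -0.10 without antigen and 0.04 to 0.20 with HEL. In IgMG cells 1 member fell with no filter, as did 98 of all 12422 probe sets. With only the 4 arrays of the comparison 1 member fell, as did 51 of all 7453 probe sets. It was also 1 with the replicate block (100 of all probe sets) and with the Gapdh ratio as a covariate (49). At an adjusted p of 0.1, 8 members fell, and the share of all probe sets at that threshold was not counted. Without both arrays that stand apart, 6 fell and 1 (Ifi207) rose in IgMG cells, 2 (Ifi204 and Ifi207) rose for the mean response, and the medians were -0.47 in IgM cells, -0.16 in IgMG cells, -0.36 for the mean, 0.32 for the difference and 0.04 for IgMG minus IgM with HEL. For the mean response 1 member rose with probe sets averaged (Adar), as did 595 of all 5904 genes or probe sets then tested. At a limma adjusted p of 0.1, 1 rose (Ifi204), and the share of all probe sets was not counted. With the offset at 64, the medians were -0.24 in IgMG cells, -0.36 for the mean and 0.21 for the difference. The median was -0.42 for the mean with no filter. For the difference it was 0.30 with the brightest 40%, 0.31 with probe sets averaged and 0.29 with the Gapdh covariate, which gave -0.28 in IgMG cells.

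The replicate block left 13 members that fell in IgM cells, 1 in IgMG cells and 13 for the mean, and it changed no other member count. Over all 7453 probe sets the numbers that fell with the block were 443, 100 and 727. Replicate differences of the groups correlated at -0.16 to 0.02, so the numbers were not taken as pairs. A crossed pairing of the 4 unstimulated arrays gave 0 calls.

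Signs turned only for changes that were not called. With single arrays left out, log2 changes in IgM cells ranged from -0.09 to 0.73 for Ifi204, -1.05 to 0.57 for Ifi207 and -0.18 to 0.42 for Ifitm2. In IgMG cells they ranged from -0.49 to 0.23 for Eif2ak2, -0.57 to 0.05 for Gbp2, -1.64 to 0.18 for Ifi209, -0.36 to 0.14 for Ifi27l2a, -0.17 to 0.36 for Ifih1, -0.06 to 0.06 for Ifit1, -0.47 to 0.43 for Ifitm10, -1.14 to 0.19 for Ifitm3, -2.13 to 0.31 for Ifitm6 and -0.4 to 0.05 for Isg20. Without both arrays that stand apart, Ifi207 had 0.57 and Ifitm2 -0.18 in IgM cells, and in IgMG cells Gbp2 had 0.05, Ifi209 0.18, Ifitm10 0.43, Ifitm3 0.19, Ifitm6 0.31 and Isg20 0.05. With the Gapdh covariate, Ifitm1 had -0.08 in IgM cells, and in IgMG cells Eif2ak2 had 0.07, Ifi209 0.08, Ifit1 -0.28, Ifitm10 0.24, Irgm1 -0.04 and Isg15 -0.02. Centring gave 0.05 and quantile normalization 0.04 for Ifitm10 in IgMG cells.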
